A study of Mus musculus with 4 samples.

Results

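The genes described here are 7 Toll-like receptor genes (Tlr1, Tlr2, Tlr3, Tlr4, Tlr6, Tlr7 and Tlr9) and 3 genes of lipopolysaccharide (LPS) sensing (Cd180, Ly86 and Ly96), chosen by name as 10 of the 22367 protein-coding genes with an annotated transcription start site (TSS). Their H3K4 chromatin signal, from an antibody labelled H3K4 without a methylation state, was compared between PA1-KO and PA1-WT mouse B cells in chromatin immunoprecipitation sequencing (ChIP-seq). PA1 is a small protein that works with PTIP beside the H3K4 methyltransferases MLL3 and MLL4. The series is about the role of PTIP with PA1 in immunoglobulin class switching. Both groups were spleen B cells of mice aged 6 to 14 weeks, freed of CD43-positive cells and kept for 2 days in LPS at 25 µg/ml with either an IgD antibody on dextran at 2.5 ng/ml or IL-4 at 5 ng/ml. The labels do not say which of these additions the 2 H3K4 libraries received, nor the knockout allele, its Cre driver, the mouse strain or how many mice were used. Every cell studied had therefore met LPS, the ligand of the Tlr4 receptor, and no culture without it was analysed here.

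Toll-like receptors recognize molecules of microbes and signal through adaptor proteins to NF-kB and interferon regulatory factors. Tlr4 senses LPS together with MD-2, the product of Ly96, while RP105, the product of Cd180, pairs with MD-1, the product of Ly86, and modulates the LPS response of B cells. Tlr2 pairs with Tlr1 or Tlr6 at the cell surface to sense lipopeptides, and Tlr3, Tlr7 and Tlr9 sense double-stranded RNA, single-stranded RNA and CpG DNA inside endosomes. H3K4 trimethylation is a mark of active promoters and monomethylation a mark of enhancers.

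Each genotype had 1 library, of 5259995 nuclear reads for the knockout and 5539475 for the wild type. The genotypes therefore cannot be tested against each other or checked over replicates. Each ratio below is knockout over wild type with a 95% interval that covers counting error alone. Levels are in normalized RPM (scaled reads per 1000000 nuclear reads) within 1 kb either side of the TSS, so every promoter has the same length. A promoter with 50 or more reads in both libraries combined is called marked, and it counts as higher or lower when its ratio is at least 1.5-fold from 1 and its interval excludes 1. As a check of the labels, the promoter of the PA1 gene (2900092E17Rik in the annotation) had 114 knockout against 261 wild-type reads, at a ratio of 0.498 (0.396 to 0.624). In bulk chromatin, fewer cells with a mark and less of the mark per cell cannot be told apart.

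All 10 promoters were marked, against 54.5% of all genes, and none of them was counted as higher or lower. The genes were chosen with earlier results of these data known, so the share marked is a description and not a test. Tlr9 had the lowest ratio, 0.717, and Tlr7 the highest, 1.499, just under the threshold. Over all 12186 marked promoters, 0.665% were higher and 4.90% lower, so that a count of 0 among 10 genes is near this background. Of the 10 ratios, 7 were above 1 and 3 below, and the median log2 ratio was 0.17, beside 0.00 over all marked promoters. The interval lay above 1 at Tlr4, Tlr7 and Ly96, as at 10.1% of all marked promoters, and below 1 at Tlr9, as at 11.4%.

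**Figure D1:**
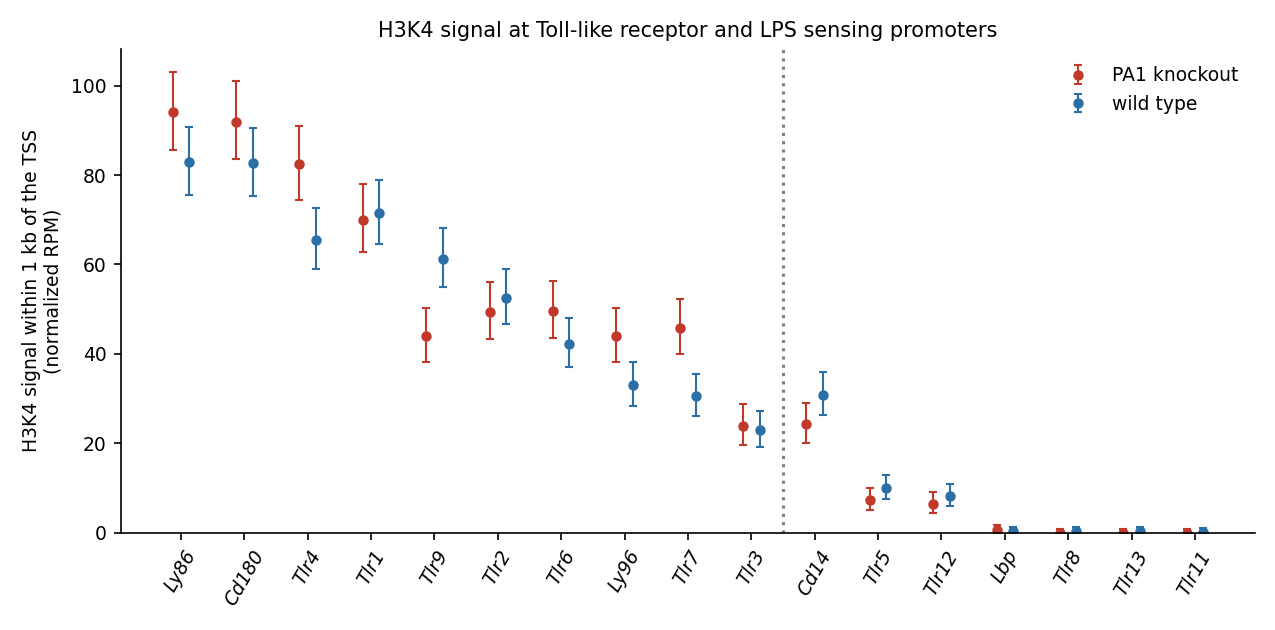
H3K4 signal within 1 kb of the TSS (normalized RPM, linear axis from 0) for the 10 receptor and co-receptor genes, left of the dotted line, and 7 other Toll-like receptor or LPS-binding genes, right of it. Points are the single libraries of each genotype and bars are 95% Poisson intervals. Ly86 and Cd180 stand highest, and Lbp, Tlr8, Tlr13 and Tlr11 lie near 0.

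The promoters of these genes are poor in CpG, and most promoters of that kind carried little H3K4 signal. In the stretch from 250 bases before to 50 after the 5′-most TSS, the 10 genes had a median observed over expected CpG of 0.32, beside 0.76 over marked and 0.23 over unmarked promoters. Their median GC content was 48.0%, beside 60.3% and 48.3%. Observed over expected CpG was under 0.4 at 7 of the 10. Over all genes, only 18.7% of the 9149 promoters under this value were marked. Because the 10 genes were chosen with earlier results of these data known, this contrast is a description only. The Tlr9 stretch held no CpG, and that of Ly86, the richest of the 10, held 13. The 200 bases upstream of the 5′-most TSS are printed below from the NCBIM37 (mm9) genome, 5′ to 3′ along the gene, in lower case with motif matches in capitals. Ly86 and Tlr3 are shown as the members with the most and the fewest reads. Tlr9 and Ly96 were added for their motif matches and Tlr8 as an unmarked receptor for contrast, all after their values were seen. The capitals mark the PU.1-type motif GAGGAA, the NF-kB-type motif (GGG, any 3 bases, then TTCC), the TATA-type motif TATAAA and the octamer ATGCAAAT, on either strand.
Ly86: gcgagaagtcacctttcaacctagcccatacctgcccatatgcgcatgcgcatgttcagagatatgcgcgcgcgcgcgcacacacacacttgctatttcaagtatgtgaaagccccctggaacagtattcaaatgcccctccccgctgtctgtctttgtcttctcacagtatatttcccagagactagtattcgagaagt
Tlr3: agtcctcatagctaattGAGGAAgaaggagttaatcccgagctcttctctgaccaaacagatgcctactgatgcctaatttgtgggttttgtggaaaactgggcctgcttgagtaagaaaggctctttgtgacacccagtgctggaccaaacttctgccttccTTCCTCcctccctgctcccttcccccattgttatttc
Tlr9: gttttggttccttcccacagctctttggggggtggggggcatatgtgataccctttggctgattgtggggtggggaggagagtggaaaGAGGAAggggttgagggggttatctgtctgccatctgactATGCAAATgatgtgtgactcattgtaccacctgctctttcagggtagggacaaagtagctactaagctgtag
Ly96: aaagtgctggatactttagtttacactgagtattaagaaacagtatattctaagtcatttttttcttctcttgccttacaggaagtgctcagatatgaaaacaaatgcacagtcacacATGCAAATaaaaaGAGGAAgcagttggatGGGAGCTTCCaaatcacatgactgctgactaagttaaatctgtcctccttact
Tlr8: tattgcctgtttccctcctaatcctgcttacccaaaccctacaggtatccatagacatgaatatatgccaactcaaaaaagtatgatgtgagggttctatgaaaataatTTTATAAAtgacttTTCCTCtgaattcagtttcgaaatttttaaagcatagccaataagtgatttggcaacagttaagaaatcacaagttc
The Ly86 bases lie at chr13:37437014-37437213 on the plus strand, those of Tlr3 at chr8:46495963-46496162 on the minus strand and those of Tlr9 at chr9:106124729-106124928 on the plus strand. The Ly96 bases lie at chr1:16678337-16678536 on the plus strand and those of Tlr8 at chrX:163702262-163702461 on the minus strand. Each stretch lies upstream of the 5′-most annotated TSS of its gene, so no annotated exon of that gene overlaps it. Overlap with exons of other genes was not examined.

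In the same stretch around the 5′-most TSS, the octamer, the binding motif of Oct-type factors, matched at Tlr9 and Ly96, 2 of 10 genes, and at 1.73% of all promoters. In the sequences above it starts 72 bases upstream of the Tlr9 TSS and 82 bases upstream of the Ly96 TSS, each near a GAGGAA match. These 2 genes lie on opposite sides in the comparison of genotypes, with ratios of 0.717 and 1.33. The NF-kB-type motif matched at 4 of 10 genes, Tlr2, Tlr3, Tlr6 and Ly96, beside 5.54% of all promoters. GAGGAA matched at 6 of 10, beside 28.1%, and TATAAA at 2 of 10, beside 13.4%. The interferon-response-type motif (GAAA, any 2 bases, then GAAA) matched at 0 of 10 and at 3.78% of all. A match describes letters and does not show that a factor binds.

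Among the LPS receptors, the Cd180 and Ly86 pair carried the strongest signal of the 10 genes. Ly86 (chromosome 13, TSS 37437214, plus strand) had 457 knockout against 459 wild-type reads, or 94.2 and 82.9 RPM, a level above 98.4% of all genes. Cd180 (chromosome 13, TSS 103483691, plus strand) had 446 and 458 reads, or 91.9 and 82.7 RPM. Both partners were thus close between the libraries, with ratios of 1.14 (0.996 to 1.30) and 1.11 (0.973 to 1.27). The ratio of Cd180 over that of Ly86 was 0.978 (0.810 to 1.18), so a difference between the partners was not detectable.

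Both signals reached far into the gene. The island of enrichment over the Cd180 promoter was 9200 bp wide, wider than 99.7% of islands within 1 kb of a coding TSS, and held 1611 knockout against 1637 wild-type reads. The Ly86 island was 5000 bp wide, above 96.3% of them, with 906 and 980 reads. From 1 to 3 kb downstream of the TSS, Cd180 had 686 and 621 reads and Ly86 had 417 and 471. The island ratios were 1.12 (1.05 to 1.20) for Cd180 and 1.06 (0.963 to 1.16) for Ly86.

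The Tlr4 and Ly96 pair, the LPS receptor and its co-receptor, had ratios above 1 in these libraries, below the 1.5-fold threshold. Tlr4 (chromosome 4, TSS 66489236, plus strand) had 400 knockout against 363 wild-type reads, or 82.4 and 65.5 RPM, and a ratio of 1.26 (1.09 to 1.45). At its 4 annotated TSSs the ratio ran from 1.20 to 1.26. Ly96 (chromosome 1, TSS 16678537, plus strand) was weaker, with 213 and 183 reads, or 43.9 and 33.0 RPM, and a ratio of 1.33 (1.09 to 1.63). The knockout library was the higher for both genes. The ratio of Tlr4 over that of Ly96 was 0.947 (0.737 to 1.22), and that of Tlr4 over Cd180, both receptors in LPS sensing, was 1.13 (0.929 to 1.38), so neither pair differed detectably. At Ly96, mismatched reads were 8.92% of the knockout and 2.73% of the wild-type reads (19 and 5 reads), beside 8.04% and 7.34% over the libraries. These shares also differed at other genes, among them Tlr9 (10.3% and 5.90%) and, the other way, Tlr7 (5.41% and 9.47%). The part of mismatched reads in the ratios was not tested. When the trend of the ratio with GC content was removed, the Tlr4 and Ly96 intervals took in 1, at 1.09 (0.940 to 1.26) and 1.14 (0.932 to 1.40). Scaled to background reads, the ratios were 1.02 and 1.07.

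The lipopeptide receptors Tlr2, Tlr1 and Tlr6 were close between the libraries. Tlr1 (chromosome 5, TSS 65324000, minus strand) had 340 knockout against 396 wild-type reads, or 70.0 and 71.5 RPM, and a ratio of 0.980 (0.845 to 1.14). Tlr6, its neighbour (TSS 65351287, minus strand), had 241 and 234 reads, or 49.7 and 42.2 RPM, and a ratio of 1.18 (0.978 to 1.41). The Tlr1 ratio over that of Tlr6 was 0.834 (0.657 to 1.06), so the neighbours did not differ detectably. Tlr2 (chromosome 3, TSS 83645689, minus strand), the partner of both, had 240 and 291 reads, or 49.4 and 52.5 RPM, and a ratio of 0.941 (0.790 to 1.12). Within 500 bp of the TSS the Tlr2 ratio was 0.729 (0.533 to 0.991). Most Tlr2 reads lay farther in, with 87 and 89 reads in the bin from 600 to 800 bp downstream.

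The ratios on either side of the Tlr1 TSS lay on opposite sides of 1, with overlapping intervals. The difference between the sides was not tested. The upstream kilobase had 212 knockout against 211 wild-type reads, at a ratio of 1.15 (0.943 to 1.39), and the downstream kilobase had 128 and 185, a ratio of 0.790 (0.625 to 0.995). With the GC trend removed, the whole Tlr1 window came to 0.795 (0.686 to 0.922), below promoters of like GC content and short of the threshold. An island of 400 bp beyond the end of Tlr1, 9.60 kb downstream of its TSS, had 22 knockout against 10 wild-type reads. Its ratio of 2.51 (1.14 to 5.94) counted as higher, as did 5.67% of islands over 1 kb from a coding TSS.

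**Figure D2:**
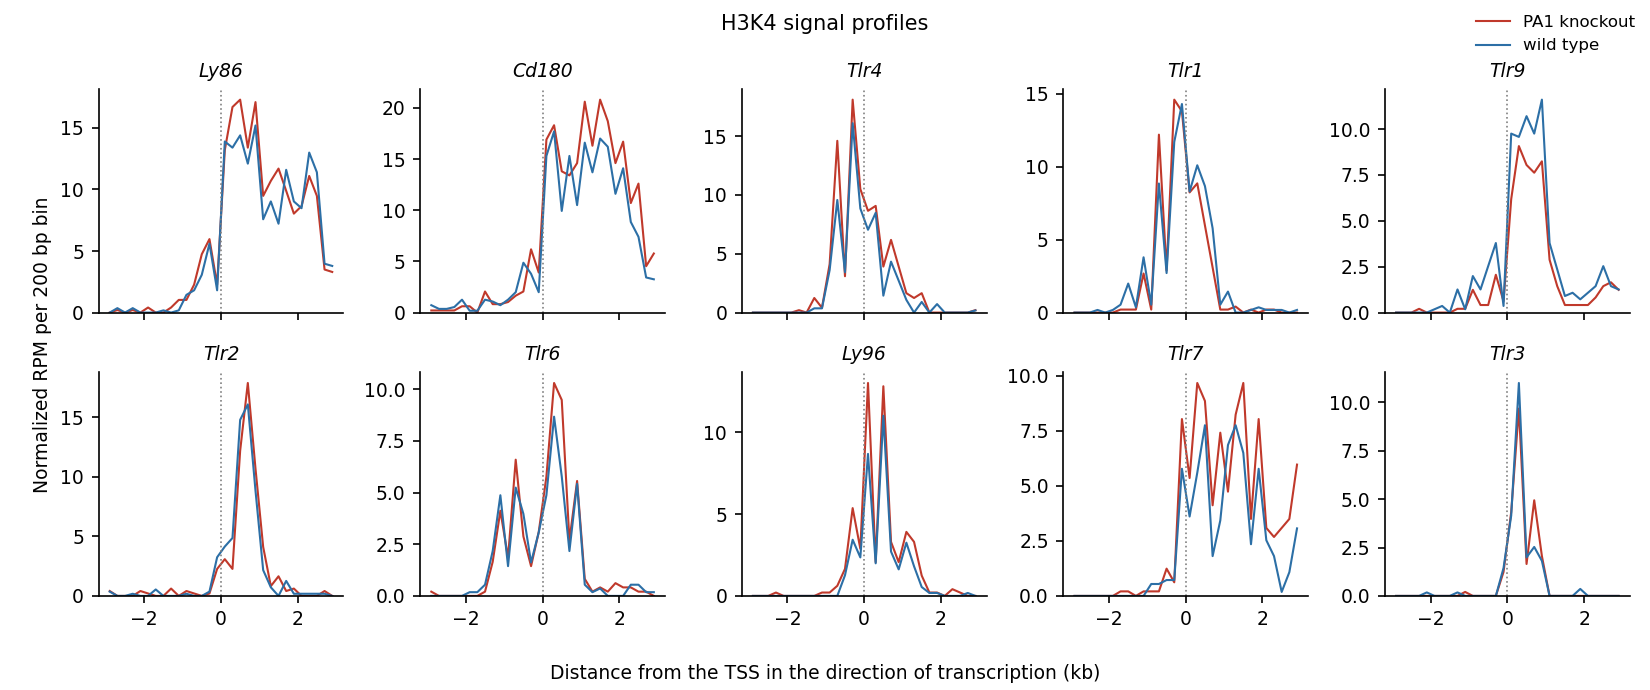
H3K4 signal in normalized RPM per 200 bp bin from 3 kb upstream to 3 kb downstream of the TSS (dotted line) in the single library of each genotype, with each vertical axis starting at 0. Cd180, Ly86 and Tlr7 stay high beyond 1 kb downstream, Tlr2 forms a single downstream peak, Tlr3 a strong and then a weaker one, and Tlr4 and Tlr1 have their highest wild-type bin just upstream of the TSS.

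The 10 promoters also differed in the side on which the signal lay. The downstream share of reads in the window was 94.2% at Tlr3, 93.2% at Tlr2 and 85.9% at Tlr9, above the median of 63.6% over all marked promoters. It was lowest at Tlr4, 37.7%, and Tlr1, 42.5%. The Tlr4 share belongs to the TSS with the most reads, which lies downstream of the other annotated ones.

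The nucleic acid receptors held both extremes of the comparison. Tlr3 (chromosome 8, TSS 46495962, minus strand), the weakest of the 10 promoters, had 116 knockout against 127 wild-type reads, or 23.9 and 22.9 RPM, and a ratio of 1.04 (0.803 to 1.35). Tlr7 (X chromosome, TSS 163768375, minus strand) was higher in the knockout library, with 222 and 169 reads, or 45.7 and 30.5 RPM, and a ratio of 1.499 (1.22 to 1.84). Tlr9 (chromosome 9, TSS 106124929, plus strand) was lower, with 213 and 339 reads, or 43.9 and 61.2 RPM, and a ratio of 0.717 (0.601 to 0.854). In order of level, Tlr9 was the fifth of the 10 genes in the wild-type library and tied with Ly96 next to the lowest in the knockout library. In the wild-type order, the intervals of every pair of neighbouring levels overlapped. In the knockout order, Tlr1 stood clear of the next gene below it (62.8 against an upper bound of 56.3 at Tlr6), and Tlr3 lay clear below the others.

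The Tlr7 ratio divided by the Tlr9 ratio was 2.09 (1.59 to 2.74), a pair chosen as the extremes after their values were seen. It was 1.69 with the GC trend removed and 1.76 with the trends of GC content and level both removed. For Tlr7 alone, the GC trend took the ratio to 1.21 (0.982 to 1.48), and scaling to background reads gave 1.21 (0.987 to 1.49). Tlr7 passed the threshold as higher in a window of 500 bp, at 1.60 (1.23 to 2.09), where 1.21% of all promoters did, and with the level trend removed, at 1.53 (1.25 to 1.88), where 2.06% did. At its 6 annotated TSSs the ratio ran from 1.45 to 1.499. Tlr9 kept nearly the same ratio with the GC trend removed, 0.715 (0.599 to 0.851). Removing this trend could hardly change it, because the fitted curve lay close to no change at the GC content of the Tlr9 window. In the 500 bp window the Tlr9 ratio was 0.787 and its interval took in 1 (0.606 to 1.02). It passed the threshold as lower when scaled to total reads, at 0.662 (0.555 to 0.788), where 7.78% of all promoters did, and to background reads, at 0.579 (0.486 to 0.689), where 16.7% did. Both of these scalings lower every ratio.

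**Figure D3:**
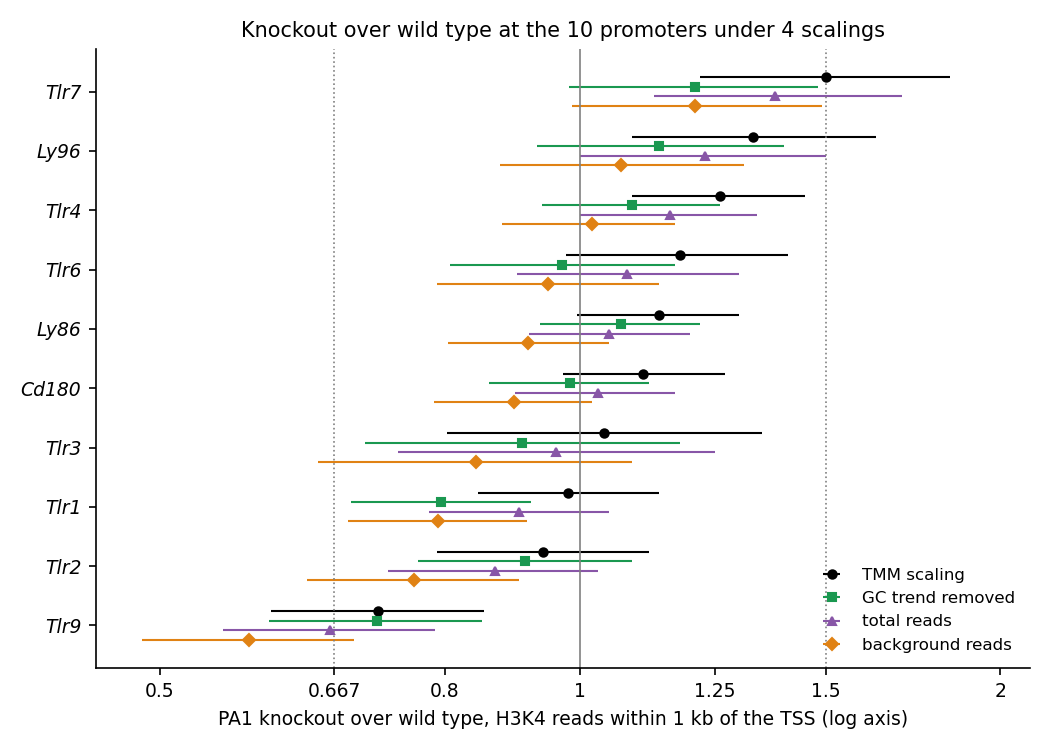
Ratio of knockout over wild type at the 10 promoters on a log axis, with 95% intervals for counting error, under TMM scaling, with the GC trend removed, and scaled to total or background reads. Dotted lines mark 1.5-fold in each direction. The Tlr9 intervals lie below 1 under all 4 scalings, while those of Tlr7 take in 1 with the GC trend removed and under background scaling. Total and background scaling lower every ratio, and the GC trend hardly changes that of Tlr9. These alternatives could therefore not bring the Tlr9 intervals up to 1.

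The lower signal at Tlr9 ran along the whole gene. In the gene with 2 kb on either side there were 428 knockout against 769 wild-type reads, at a ratio of 0.635 (0.563 to 0.716). The promoter island, chr9:106124001-106126400, had 232 and 374 reads, at a ratio of 0.708 (0.598 to 0.836). A further island, chr9:106127001-106130000, covers the 3′ part of the gene, starts 2072 bp downstream of the TSS and has no annotated TSS within 1 kb. It is 3000 bp wide, and 73.6% of its bases are exonic, most of them coding. It had 181 and 358 reads, at a ratio of 0.577 (0.480 to 0.692), and so was counted as lower. The same held for 5.71% of the 11979 islands over 1 kb from a coding TSS. Among the 1799 of these with 200 or more reads, 2.11% were lower. With the GC trend removed the ratio of the 3′ island was 0.630 (0.524 to 0.755), still past the threshold. Its strongest 400 bp, from 3600 to 4000 bp downstream of the TSS, had 41 knockout against 90 wild-type reads. The intervals of the promoter and 3′ islands overlap, and the difference between their ratios was not tested.

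Neighbours of Tlr9 differed among themselves. The island at the promoter of Wdr82 upstream had 522 and 560 reads, at a ratio of 1.06 (0.942 to 1.20), and that of Twf2, 19.0 kb upstream of the Tlr9 TSS, had 325 and 426 reads and 0.871 (0.751 to 1.01). The wider of the islands at Ppm1m, 24.5 kb upstream, had 151 and 236 reads and 0.730 (0.591 to 0.900), and the narrower had 93 and 121 reads and 0.877 (0.662 to 1.16). Downstream, the island at Alas1 had 225 and 319 reads and 0.805 (0.676 to 0.958). None of these neighbours passed the threshold, and the wider Ppm1m island was the nearest to the ratio of the Tlr9 promoter island.

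Tlr7 differed from Tlr9 in form. Its promoter island was 4200 bp wide, above 93.5% of islands near a coding TSS, and held 505 knockout against 397 wild-type reads, at a ratio of 1.45 (1.27 to 1.66). With the GC trend removed the ratio was 1.20 (1.05 to 1.37). In the gene with 2 kb on either side there were 587 and 476 reads, at a ratio of 1.41 (1.25 to 1.59). Smaller islands 11.3 kb and 14.4 kb inside the gene had 21 and 20 reads and 16 and 17 reads, and their intervals took in 1.

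**Figure D4:**
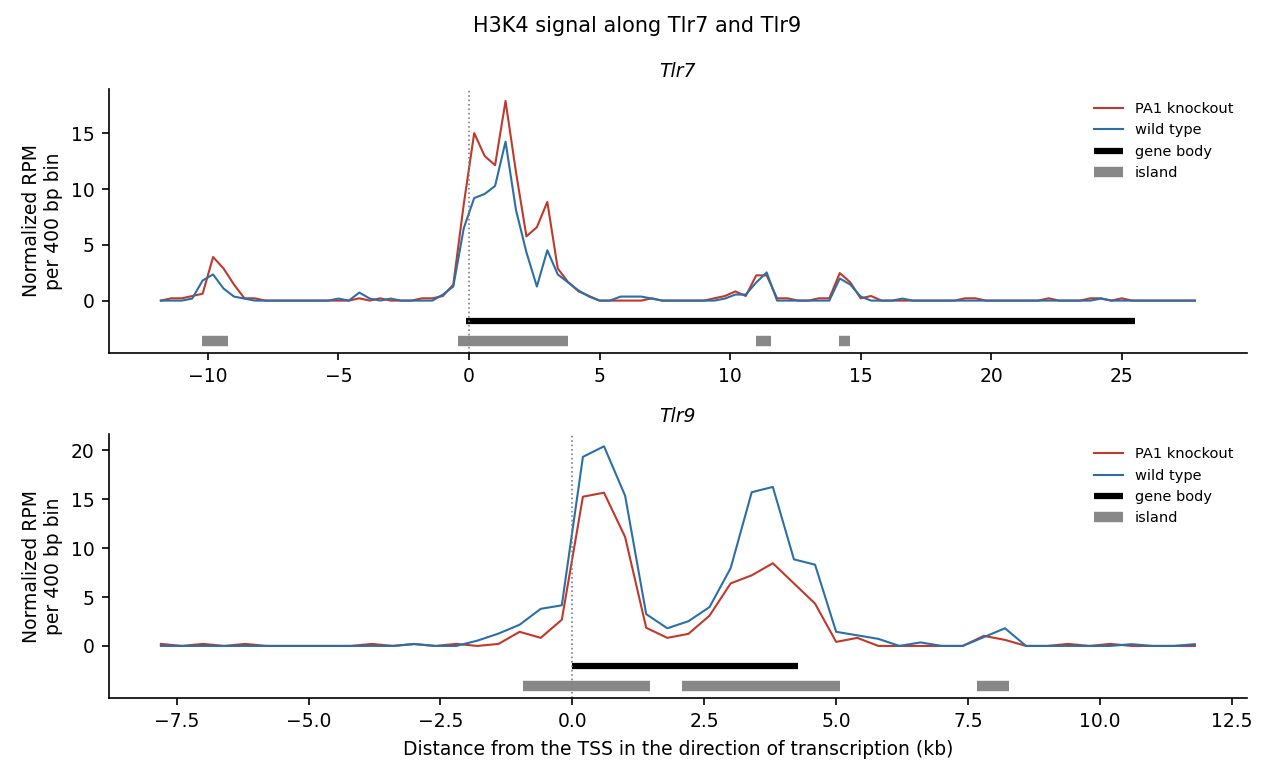
H3K4 signal in normalized RPM per 400 bp bin along Tlr7 (top) and Tlr9 (bottom) by distance from the TSS in kb, in the single library of each genotype, with the gene body in black and islands in grey. The wild-type line lies above the knockout line over both Tlr9 islands, and the knockout line above the wild-type line over the Tlr7 promoter island.

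The ratios followed the GC content of the window over the whole genome, and 5 of the 10 genes lie toward its low end. Over all marked promoters the median log2 ratio fell from 0.25 at 40 to 45% GC, over 389 promoters, to 0.04 at 50 to 55% and -0.30 at 65% and above. Tlr7 (41.1% GC), Tlr1 (41.5%), Tlr6 (42.3%), Ly96 (44.4%) and Tlr4 (44.8%) fall in the first of these classes, with Tlr3 next at 45.4%. Tlr9 has the highest GC content of the 10, 53.8%. With the GC trend removed, the median log2 ratio of the 10 genes was -0.03, and the only intervals that left out 1 were those of Tlr1 and Tlr9, both below it. At Tlr9 this removal could hardly change the ratio.

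**Figure D5:**
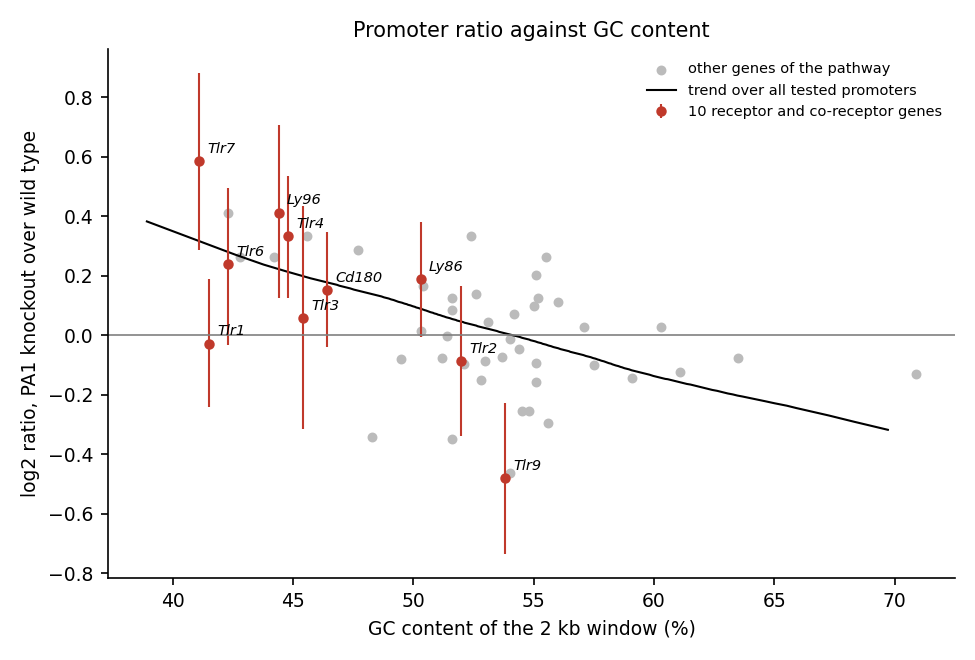
Log2 ratio of knockout over wild type against the GC content (%) of the 2 kb window for the 10 genes (red, with 95% counting intervals) and the other marked genes of the pathway (grey), with the trend over all marked promoters (line). Tlr7, Ly96 and Tlr4 lie left and above both 0 and the line, with intervals that reach the line. The intervals of Tlr1 and Tlr9 lie below the line.

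The other Toll-like receptors were weakly marked or not marked in these B cells. Tlr5, the flagellin receptor, had 35 knockout against 55 wild-type reads, or 7.21 and 9.93 RPM, and a ratio of 0.726 (0.461 to 1.13). The Tlr5 gene with 2 kb on either side had 154 and 166 reads, at a ratio of 1.06 (0.845 to 1.33). Tlr12, a receptor for profilin, had 31 and 45 reads, at a ratio of 0.786 (0.481 to 1.27). The Tlr12 gene with 2 kb on either side had 40 and 83 reads, at a ratio of 0.550 (0.367 to 0.811). Tlr8 and Tlr13 had 0 knockout against 2 wild-type reads each, and Tlr11 had 0 and 1. A count of 0 in the knockout library allows up to 0.760 RPM by the exact 95% Poisson interval. Of the 25-base positions in their windows, 94.6% at Tlr8, 92.5% at Tlr13 and 78.3% at Tlr11 occur once in the genome, so reads could be placed there. At the 10 genes this share was between 91.6% (Ly96) and 100% (Tlr2). The LPS-binding proteins differed from each other. Cd14, the surface LPS carrier, had 118 and 171 reads, at a ratio of 0.788 (0.618 to 1.002). With the GC trend removed the Cd14 ratio was 0.717 (0.562 to 0.912), which leaves out 1 and is short of the threshold. Lbp, the serum LPS-binding protein, had 3 and 2 reads. Of these 7 genes only Tlr5, Tlr12 and Cd14 had enough reads to be compared, and none of the 3 was counted as higher or lower.

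Other genes of the pathway were read against the same background. Of 46 genes in 4 lists, the 7 just described included, 42 were marked, 0 were higher and 0 lower, beside 0.665% and 4.90% of all marked promoters, so these counts are near the background. Their median log2 ratio was -0.01. All 15 adaptors and proximal kinases were marked, with ratios from 0.901 (0.768 to 1.06) at Pik3ap1, the adaptor BCAP, to 1.12 (0.976 to 1.28) at Btk, the B cell kinase. Among 12 genes of receptor folding and trafficking, the lowest was Unc93b1, the chaperone that carries Tlr3, Tlr7 and Tlr9 to endosomes, with 221 and 301 reads and 0.838, with an interval from 0.701 to just over 1. The highest was Ctss, a protease that cleaves endosomal receptors, with 294 and 253 reads and 1.33 (1.12 to 1.58), or 1.10 with the GC trend removed. Ratios of the 12 genes listed as negative regulators ran from 0.815 (0.610 to 1.09) to 1.26 (1.07 to 1.49). The lowest was at Sigirr, an inhibitory receptor of the same family. The highest was at Peli1, a ubiquitin ligase whose direction of action in these cells was not tested.

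Markers of other cells were read beside these values, since macrophages and dendritic cells also use Toll-like receptors. All 8 B cell markers were marked and none was higher or lower, with 282 to 570 knockout and 342 to 585 wild-type reads each. The 8 macrophage markers summed to 96 knockout against 152 wild-type reads, most of them at Cebpa (57 and 92), with Csf1r at 0 in both. The 7 granulocyte markers summed to 8 and 7. The 6 dendritic cell markers summed to 208 and 450. Only 2 of them were marked, and both were counted as lower, as were 4.90% of all marked promoters. Flt3, a cytokine receptor also found on progenitors, had 151 and 307 reads, at a ratio of 0.561 (0.459 to 0.684). Zbtb46 had 49 and 123 reads, at 0.455 (0.320 to 0.638). Removing the GC trend gave 0.570 at Flt3 and 0.569 at Zbtb46, whose window has 70.1% GC. Removing the trends of GC content and level gave 0.562 and 0.656. Flt3 and Zbtb46 moved the same way as Tlr9, at 0.717, and the opposite way to Tlr7, at 1.499. Siglech, a defining marker of plasmacytoid dendritic cells, had 2 reads in each library, and Xcr1 and Clec9a, which define a conventional subset, had 3 or fewer in each. Itgax, the gene of CD11c, had 2 knockout against 14 wild-type reads, too few to be counted, in the same direction as Flt3 and Zbtb46. The part of these markers in the Tlr9 values was not tested. The 6 T and NK cell markers summed to 150 and 183, nearly all at Lck.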

How the data were processed

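H3K4 ChIP-seq reads of 2 of the 4 samples in the series, 1 per genotype, were used; the other 2 samples were not analysed here. Per the labels' protocols, native chromatin was cut to mononucleosomes with MNase, amplified for 18 PCR cycles, selected near 220 bp and sequenced for 36 cycles. The deposited files list mapped reads of 25 bases with no value, 1 per position and strand. The submitters' processing notes name mm9 and SICER, and give no aligner.

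Read 5′ ends were moved 75 bp into the fragment and counted within 1 kb of 1 TSS per protein-coding gene (GENCODE vM1, NCBIM37), the annotated one with the most reads. Scaling used TMM, a trimmed mean of log ratios (30% of ratios and 5% of levels trimmed, factor 0.923). Intervals on ratios are exact conditional binomial (Clopper-Pearson) and those on levels exact Poisson. Both cover counting error only, since each genotype had 1 library. PCR copies were not told apart by molecular identifiers, and the files hold at most 1 read per position and strand. Background reads lay outside islands and over 1 kb from any coding TSS. Trends with GC content or level were lowess curves of the log2 ratio (span 30%). Islands came from the pooled libraries in 200 bp windows (Poisson probability under 1e-05, gaps up to 200 bp, 20 or more reads). Named genes are the 10 members, every other Toll-like receptor, and the called and extreme genes of each list. The upstream sequences of some genes are not reported here. The members and lists were chosen with earlier results of these data known. Counting was tested on simulated data. Python 3.11.15, numpy 2.4.6, scipy 1.17.1 and statsmodels 0.14.6 were used. Alternatives in window, shift, scaling, trends, minimum of reads and TSS were tried.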

Additional observations from a re-analysis of the deposited data

How the results depend on the processing

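No paired analysis was possible because each genotype has 1 library. The count of marked members stayed at 10 in windows of 500 bp and 2 kb, without the shift, and with minimums of 20 and 100 reads. The wider window and these minimums could not lower it, since the weakest gene, Tlr3, had 243 reads in both libraries combined. The number of members counted as higher or lower went from 0 to 1 in a 500 bp window and with the level trend removed (Tlr7 higher), and to 1 when scaled to total or background reads (Tlr9 lower). The number of other pathway genes counted went from 0 to 3 with background scaling, namely Tlr5 at 0.586, Cd14 at 0.636 and Sigirr at 0.658, all lower, where 16.7% of all marked promoters were lower. The median log2 ratio of the members was -0.14 with background scaling, which moves the median of all marked promoters to -0.31, and -0.04 with the GC and level trends removed. Over 12 alternatives the Tlr9 ratio ran from 0.579 to 0.787, that of Tlr7 from 1.21 to 1.60, that of Tlr4 from 1.02 to 1.31 and that of Ly96 from 1.07 to 1.39, each on its own side of 1 throughout. Cd180 was below 1 in 3 of them and Ly86 in 2. Changes in the minimum of reads left every ratio as it was, and the total and background scalings could only lower a ratio. Removing the GC trend could hardly change that of Tlr9. The ratio of Tlr7 over Tlr9 under other windows, shifts and trends, alternatives chosen after seeing the data, ran from 1.69 to 2.19. The 3′ island of Tlr9 was at 0.466 when scaled to background reads and 0.532 when scaled to total reads. Because both scalings lower every ratio, its count as lower could not have changed. With 1 library per genotype, no alternative here shows the spread between cultures or mice.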

Other observations

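Of 21 islands in or within 10 kb of the 10 genes, only the 3′ island of Tlr9 and an island 9.60 kb downstream of the Tlr1 TSS, beyond the end of that gene, were counted as lower or higher. The Tlr1 island was no longer counted when scaled to background reads, at 2.03. Over all islands near a coding TSS, 1.22% were higher and 5.10% lower, and over the others 5.67% and 5.71%, so 2 of 21 is near this background. An island 9.72 kb upstream of the Tlr7 TSS had 35 and 26 reads, at a ratio of 1.54 (0.899 to 2.66). The weakest promoter island by width was that of Tlr3, 1200 bp, wider than 26.5% of islands near a coding TSS.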
